A study of Mus musculus with 8 samples.

Results

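The chemokine ligands were followed in 16 mouse mammary tumours measured on 8 two-colour Agilent arrays, with 1 tumour in each channel. Probes were taken by gene symbol: Ccl or Cxcl followed by a number, Xcl1 and Cx3cl1. The rule found 41 probes for 34 genes, out of 21154 named genes on the array. Of the 34 genes, 28 passed the filter on dim probes and entered the tests, which ran over 14131 genes in all. Pf4 and Ppbp are chemokines whose symbols fall outside this rule, and they are not described.

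All tumours grew from orthotopic pieces of MMTV-PyMT mammary tumours in wild-type FVB mice. In MMTV-PyMT mice the mammary tumour virus promoter drives the polyoma middle T oncogene in mammary epithelium, so the transplanted tumour cells carry the oncogene and the host's stromal and immune cells do not. RANK-Fc is a decoy receptor that binds RANK ligand, and treated mice received 10 mg/kg intraperitoneally 3 times per week. The 6 groups were passage 2 with RANK-Fc in that passage ("current", n = 3), passage 2 with RANK-Fc in the earlier passage ("prior", n = 3), passage 2 with RANK-Fc in both ("prior and current", n = 3), passage 2 control (n = 2), passage 1 with RANK-Fc (n = 3) and passage 1 control (n = 2). The labels call the current treatment adjuvant and the prior treatment neoadjuvant, and the place of the neoadjuvant treatment in passage 1 is a reading of the group codes. Each tumour has its own code, the labels do not say whether a code stands for 1 animal, and they do not tie a passage 2 tumour to the passage 1 tumour it grew from.

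Chemokines are small secreted proteins that draw leukocytes along a gradient by binding receptors coupled to G proteins. Cxcl9 and Cxcl10, which are CXC ligands without the ELR motif, bind Cxcr3 on activated T and NK cells and are classical targets of interferon gamma. The ELR-bearing CXC ligands, such as Cxcl1 and Cxcl2, bind Cxcr2 on neutrophils and are classical targets of NF-kappa B. Many CC ligands, such as Ccl2, draw monocytes, and RANK itself signals through NF-kappa B.

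Levels are log2 intensities after normalisation, each gene is represented by its brightest passing probe, and a level is compared only between tumours and never between genes. These are bulk tumours, so fewer cells of a type and less RNA per cell cannot be told apart. The 7 mammary epithelial markers fixed for this check, Krt8 and Epcam among them, were above background in 16 of 16 tumours. Between 47.5% and 56.5% of a channel's spots were well above background. Over all genes, the correlation of 2 tumours had a median of 0.986 for the 14 pairs of one group and 0.979 for the 98 pairs from other groups and arrays, across genes, which are not independent replicates.

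Most of the family was detected in these tumours. Of the 28 tested chemokine genes, 23 were well above background in 16 of 16 tumours. The other 5 were above it in some: Ccl28, an epithelial ligand of Ccr10 and Ccr3, in 15, Cxcl13, which draws B cells, in 14, Ccl19, a Ccr7 ligand, in 11 by its brightest probe and 14 and 13 by its other probes, Cxcl5, a Cxcr2 ligand, in 10, and Ccl24, an eosinophil-attracting ligand, in 7. Ccl24 was above background in 0 of 3 tumours with prior and current RANK-Fc and 0 of 2 passage 2 controls, so no difference is printed for it. Among the 6 genes that did not pass, Ccl20, Ccl22, Ccl26, Cxcl15 and Cxcl3 were above background in 0 of 16 tumours and Cxcl2 in 1 of 16. Of the 5 Cxcr2 ligands on the array, Cxcl1, Cxcl2, Cxcl3, Cxcl5 and Cxcl15, only Cxcl1 and Cxcl5 could be tested. Ccl27a and Ccl19 have near-identical copies in the mouse genome, so their probes may read more than 1 gene.

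Chemokine levels differed widely between tumours of the same group. The standard deviation over the 16 tumours had a median of 0.54 log2 units for the 28 genes, beside 0.20 for all genes tested, and 2 of the 28 exceeded 1, as did 1.08% of all genes. The widest spreads belonged to Cxcl9 (SD 1.26), Cxcl10 (1.24), Ccl5 (0.87), Ccl28 (0.83) and Ccl2 (0.78). Tumour 2 of the current group held the highest level of 10 of the 28 genes, and tumour 1 of the passage 1 controls that of 6. At the other end, tumour 2 of the prior and current group held the lowest level of 8 genes and tumour 2 of the passage 1 RANK-Fc group that of 5. Within the current group, 22 of the 28 genes lay above their own mean over the 16 tumours in tumour 2, and 2 did in tumour 1. In the passage 1 controls, 26 did in tumour 1 and 8 in tumour 2.

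The 28 genes were on balance higher in Cy5 tumours. The Cy5 minus Cy3 term of the fit was positive for 25 of the 28, with a median of 0.42, beside -0.01 for all genes. It passed the threshold for 1 gene, Cxcl12 (0.64, adjusted p = 0.0272 by limma), while 4.53% of all genes passed. At an unadjusted p under 0.05 by limma it gave 12 of the 28, beside 23.9% of all genes. Current tumour 2 and tumour 1 of the passage 1 controls, which held many of the highest levels, were both Cy5 tumours. Of those that held many of the lowest, prior and current tumour 2 was Cy5 and passage 1 RANK-Fc tumour 2 was Cy3. Each group held both dyes, and the term was kept in every comparison. Whether the dye or the tumours that carried it gave this difference was not tested.

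**Figure D1:**
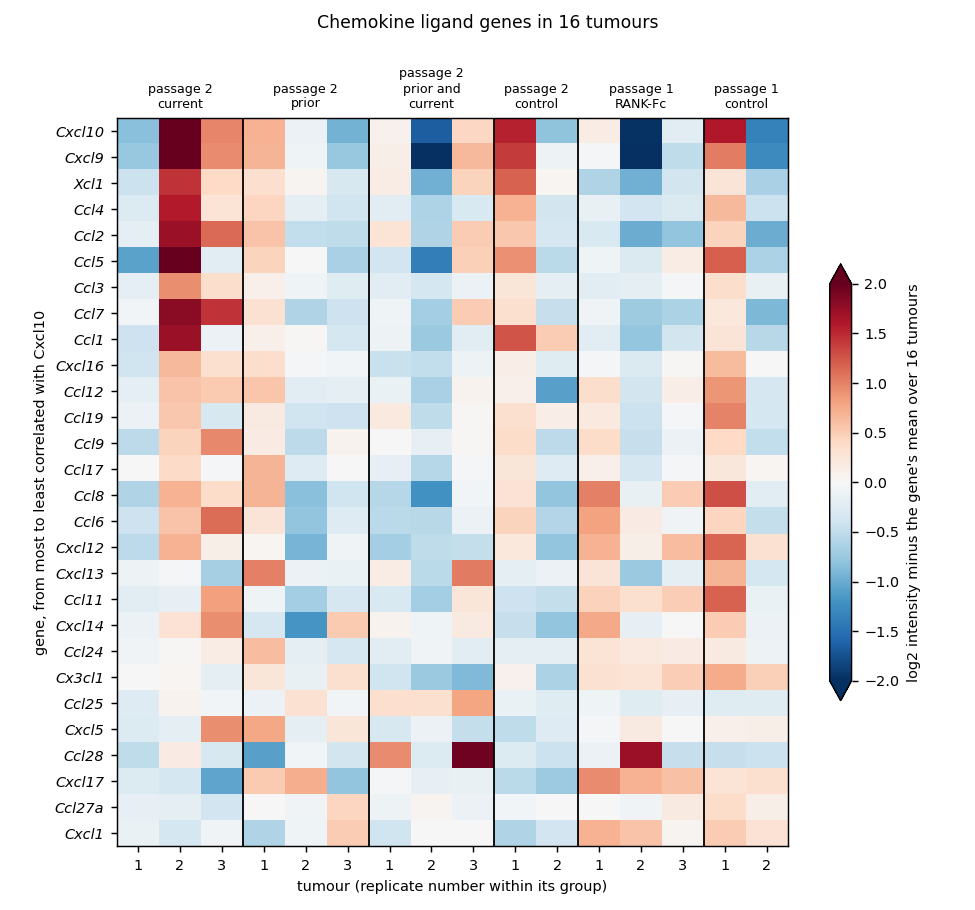
Each cell is the log2 intensity of a chemokine gene in 1 tumour minus that gene's mean over the 16 tumours, with colours cut at -2 and 2, tumours in columns by group and genes ordered by their correlation with Cxcl10. The upper rows are red together in current tumour 2 and blue together in prior and current tumour 2, which hold the highest level of 10 genes and the lowest of 8.

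The Cxcr3 ligands Cxcl9 and Cxcl10 had the widest spread of the family and varied together from tumour to tumour. Cxcl9 stood at 9.39, 12.93 and 11.09 in the current tumours, 10.83, 10.06 and 9.38 in the prior, 10.26, 8.15 and 10.80 in the prior and current, and 11.55 and 10.05 in the passage 2 controls. In passage 1 it stood at 10.10, 8.09 and 9.65 with RANK-Fc and 11.17 and 8.88 in the controls. The current group held the highest tumour and also one of the lower ones, the 16 tumours spanned 4.84 log2 units, and every pair of groups overlapped. Cxcl10 stood at 9.01, 12.28 and 10.82 in the current tumours, 10.54, 9.73 and 8.90 in the prior, 9.93, 8.19 and 10.25 in the prior and current, and 11.38 and 9.04 in the passage 2 controls. Its passage 1 levels were 9.99, 7.87 and 9.64 with RANK-Fc and 11.45 and 8.49 in the controls. The same tumours were high for both genes: current tumour 2 was the highest and passage 1 RANK-Fc tumour 2 the lowest in each case.

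Over the 16 tumours Cxcl9 and Cxcl10 correlated at Pearson r = 0.972 and Spearman rho = 0.991. For both, the permutation p was 1e-05, the smallest that 100000 resamples can give, and the Benjamini-Hochberg adjusted values over 8 pairs were 2e-05 and 2.7e-05. Without the 2 tumours farthest from the Cxcl10 median r was 0.955, and with the group means removed it was 0.977, with an exact permutation p of 0.00019 within groups. The second Cxcl9 probe gave differences close to the first, 1.19 against 1.32 between the passages. Cxcl10 also followed the mean of 16 interferon response genes, Irf7, Isg15 and Mx1 among them, at r = 0.938 and rho = 0.906, both with a permutation p of 1e-05 and adjusted values of 2e-05 and 2.7e-05. That r was 0.902 without the 2 farthest tumours, 0.955 within groups, 0.982 in the 8 Cy5 tumours and 0.878 in the 8 Cy3 tumours. The list's mean ran from 9.36 in prior and current tumour 2 to 11.93 in current tumour 2.

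The promoters of this pair are shown because the genes varied together: the 250 bases before each start site on the gene's strand, from RefSeq on build GRCm38.p6, at chr5:92328080-92328329 on the minus strand for Cxcl9 and chr5:92348890-92349139 on the minus strand for Cxcl10. Capitals mark matches to the kappa B consensus or the interferon-stimulated response element core GAAANNGAAA, each on either strand, to the interferon-gamma activated site TTCNNNGAA, or to TATAAA on the gene's strand.
Cxcl9: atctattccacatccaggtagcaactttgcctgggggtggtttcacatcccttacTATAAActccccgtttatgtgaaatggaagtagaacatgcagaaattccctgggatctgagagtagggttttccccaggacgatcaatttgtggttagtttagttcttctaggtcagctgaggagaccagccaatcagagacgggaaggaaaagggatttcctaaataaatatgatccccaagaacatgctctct
Cxcl10: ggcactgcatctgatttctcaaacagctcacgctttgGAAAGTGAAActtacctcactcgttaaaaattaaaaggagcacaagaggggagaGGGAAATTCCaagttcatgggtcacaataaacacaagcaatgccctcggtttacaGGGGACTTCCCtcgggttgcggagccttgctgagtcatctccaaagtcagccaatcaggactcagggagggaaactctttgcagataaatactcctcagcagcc
The Cxcl10 window held the response element core once, as GAAAGTGAAA, and kappa B matches at 2 places, GGGAAATTCC and the overlapping letters of GGGGACTTCC and GGGACTTCCC. In the Cxcl9 window only TATAAA was matched. The table held promoters for 24 of the 34 genes, 19 of them tested. Kappa B was matched for 7 of the 24 and in 7.25% of all 32851 windows, the response element core for 3 and in 2.98%, the activated site for 2 and in 7.02%, and TATAAA for 9 and in 7.59%. A gene was counted when any of its windows matched, while the percentages are of single windows, so the measures differ. A match describes these letters and no measured binding.

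**Figure D2:**
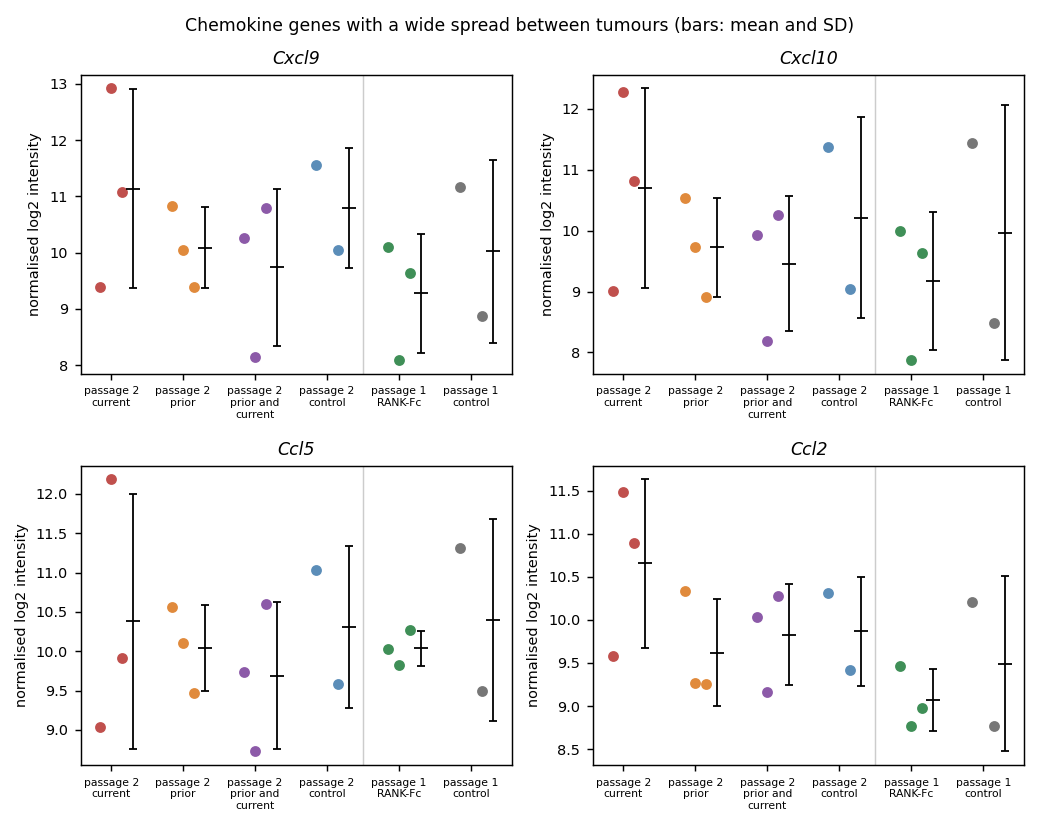
Normalised log2 intensity of Cxcl9, Cxcl10, Ccl5 and Ccl2 in each tumour (points), by group, with the group mean and SD as bars. Current tumour 2 is the highest point in each panel, at 12.93 for Cxcl9. The groups overlap, except that for Ccl2 the current points all lie above the passage 1 RANK-Fc points.

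Several ligands of T cells, NK cells and monocytes shared this order of tumours. Among 378 pairs of the 28 genes, 6 had r over 0.9 across tumours, 93 had r under 0 and the median was 0.34. The 6 pairs were Cxcl9 with Cxcl10, Ccl2 with Ccl7, Ccl3 with Ccl4, Cxcl9 with Xcl1, Cxcl9 with Ccl2, and Ccl1 with Xcl1. Closest to Cxcl10 after Cxcl9 were Xcl1 (r = 0.898), Ccl4 (0.897), Ccl2 (0.885) and Ccl5 (0.874), and farthest was Cxcl1 (-0.376). Xcl1 draws cross-presenting dendritic cells and is made by NK and activated CD8 T cells. These values describe 16 tumours that share arrays and dyes.

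Ccl5, made by activated T and NK cells, followed the markers of those cells. It stood at 9.04, 12.18 and 9.91 in the current tumours, 10.56, 10.11 and 9.47 in the prior, 9.74, 8.73 and 10.60 in the prior and current, and 11.03 and 9.58 in the passage 2 controls. In passage 1, RANK-Fc tumours had 10.02, 9.82 and 10.26 and controls 11.31 and 9.49. Groups overlapped again, and the high tumours were current tumour 2, passage 1 control tumour 1 and passage 2 control tumour 1. With the mean of 13 T and NK markers, Ccl5 correlated at r = 0.902 (permutation p = 1e-05, adjusted 2e-05) and rho = 0.776 (permutation p = 7e-04, adjusted 0.0014). The r was 0.772 without the 2 farthest tumours and 0.938 within groups (exact permutation p = 0.0017). It was 0.989 in the 8 Cy5 tumours and 0.259 in the 8 Cy3 tumours, where the marker mean ran from 7.79 to 8.39, against 7.59 to 9.32 in the Cy5 tumours. Of the 16 named T and NK markers, 11 were above background in 16 of 16 tumours, Cd3d, Cd3e and Lck among them, while Cd8a was in 14, Cd8b1 in 11 and the NK cell markers Ncr1 and Klrb1c in 5 and 4, and Trac had no probe.

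The monocyte-attracting Ccr2 ligands Ccl2 and Ccl7 moved as a pair. Ccl2 stood at 9.58, 11.49 and 10.90 in the current tumours, 10.33, 9.27 and 9.26 in the prior, 10.04, 9.16 and 10.28 in the prior and current, and 10.31 and 9.42 in the passage 2 controls. Its passage 1 levels were 9.46, 8.77 and 8.98 with RANK-Fc and 10.21 and 8.77 in the controls. Current tumours 2 and 3 were the highest of all 16, and current tumour 1 lay among the other groups. Ccl2 and Ccl7 correlated at r = 0.964 and rho = 0.965 (permutation p = 1e-05 for both, adjusted 2e-05 and 2.7e-05), and at r = 0.978 within groups (exact permutation p = 0.00039). The inflammatory ligands Ccl3 and Ccl4 gave r = 0.953 (permutation p = 3e-05, adjusted 4.8e-05) and rho = 0.75 (permutation p = 0.0011, adjusted 0.0017). Without their 2 farthest tumours these r values were 0.951 and 0.889.

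Macrophage markers tracked the myeloid ligands less closely. Ccl6, a ligand made by myeloid cells in mice, correlated with the mean of 11 macrophage markers at r = 0.759 (permutation p = 0.00064, adjusted 0.00085) and rho = 0.706 (permutation p = 0.0029, adjusted 0.0039). The r was 0.598 without current tumours 2 and 3, the 2 farthest, and 0.776 within groups (exact permutation p = 0.014). Ccl2 correlated with the same mean at r = 0.62 (permutation p = 0.0098, adjusted 0.011), while its rho of 0.447 did not pass (permutation p = 0.085). Within groups the r of Ccl2 was 0.695 (exact permutation p = 0.037), with current tumours 2 and 3 included. Leaving out those 2 tumours brought r over the remaining tumours to 0.164, so the relation of Ccl2 to the macrophage markers rests on them.

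**Figure D3:**
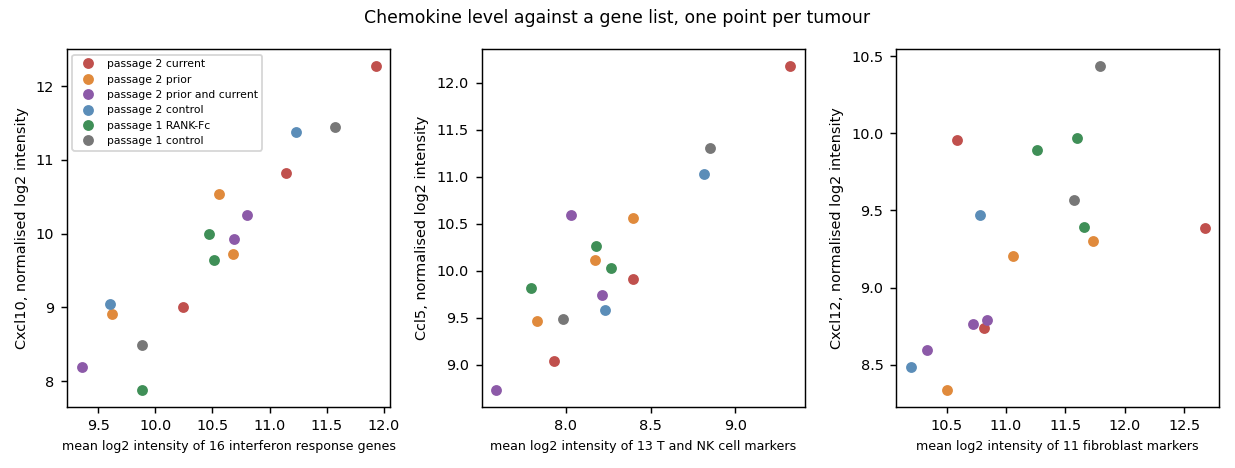
Each point is a tumour, coloured by group: Cxcl10 against the mean of 16 interferon response genes, Ccl5 against the mean of 13 T and NK cell markers and Cxcl12 against the mean of 11 fibroblast markers, all in log2 intensity. The points rise together in the first panel (r = 0.938) and more loosely in the last (r = 0.578).

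Between the passages, 4 chemokine genes fell in passage 2 and none rose. This comparison averages the current minus passage 1 RANK-Fc difference and the passage 2 minus passage 1 control difference, and so sets the 5 passage 2 tumours without prior treatment against the 5 of passage 1. The genes were Cxcl17, Cxcl1, Cxcl12 and Cx3cl1, 14.3% of the 28 tested, beside 12.1% of all genes called in either direction, 7.92% called lower and 4.2% called higher. At an unadjusted p under 0.05 there were 9 of 28 (32.1%), beside 26.6% of all genes. The median difference of the 28 was -0.01, as it was for all genes, and 14 were higher and 14 lower. As shares, the family's calls lie near the background. With the log ratios within each array alone, which leave out the level of each channel, 0 of the 28 and 0 of all genes passed. Leaving out 1 tumour gave 1 to 7 chemokine calls: Cxcl1 alone without passage 2 control tumour 2, Cx3cl1 and Cxcl17 without passage 1 RANK-Fc tumour 1 or passage 1 control tumour 1, and 7 genes without current tumour 1, when Ccl1, Ccl2, Ccl7 and Xcl1 passed as higher beside Cx3cl1, Cxcl1 and Cxcl17.

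Cx3cl1, the membrane-bound ligand of Cx3cr1 that epithelium and endothelium make, passed in 2 comparisons. Its levels were 11.87, 11.90 and 11.69 in the current tumours and 11.96 and 11.24 in the passage 2 controls, against 12.17, 12.15 and 12.35 in the passage 1 RANK-Fc tumours and 12.62 and 12.35 in the passage 1 controls. No tumour of the first 5 reached the lowest of the last 5. The difference was -0.58 ± 0.12 (SE; adjusted p = 0.00847, limma), a 1.49-fold lower intensity in passage 2. In the controls alone Cx3cl1 was the only one of the 28 to pass, at -0.81 ± 0.18 (adjusted p = 0.0326, limma), where 3.32% of all genes passed and 2.41% passed as lower, and 4 of 28 against 15.6% of all genes had an unadjusted p under 0.05. That call was lost without either passage 1 control or without passage 2 control tumour 2, the difference then lying between -0.83 and -0.55, and under median centring (-0.87) or with no dye term (-0.81). The prior group, at 12.11, 11.72 and 12.18, and the prior and current group, at 11.46, 11.13 and 10.98, did not overlap each other. The difference between these groups did not pass the threshold (adjusted p = 0.16, limma).

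Cxcl17, a mucosal chemokine, had the largest called difference of the 4. It stood at 8.02, 7.94 and 7.24 in the current tumours and 7.77 and 7.57 in the passage 2 controls, against 9.24, 8.99 and 8.88 in the passage 1 RANK-Fc tumours and 8.57 and 8.62 in the passage 1 controls. The 2 passages did not overlap in these groups. The difference was -1.15 ± 0.25 (SE; adjusted p = 0.0112, limma), a 2.22-fold lower intensity in passage 2. With prior treatment the passage 2 tumours were spread wider, at 8.82, 9.02 and 7.52 in the prior group and 8.28, 8.13 and 8.14 in the prior and current group. Prior tumours 1 and 2 lay within the range of passage 1 and prior tumour 3 did not.

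Cxcl1, the neutrophil-attracting Cxcr2 ligand, stood at 7.97, 7.75 and 8.04 in the current tumours and 7.51 and 7.72 in the passage 2 controls. Against these, passage 1 RANK-Fc tumours had 8.80, 8.67 and 8.16 and passage 1 controls 8.62 and 8.39. Passage 2 lay wholly below passage 1 here as well, by -0.82 ± 0.20 (SE; adjusted p = 0.0189, limma), which is 1.76-fold. Prior tumours stood at 7.51, 8.02 and 8.61 and prior and current tumours at 7.70, 8.10 and 8.10. Prior tumour 3 reached the passage 1 range and the other five of these tumours lay below it. With Cx3cl1 and Cxcl17, Cxcl1 makes 3 of 28 genes whose 2 sets of 5 tumours did not overlap, all lower, beside 8.42% of all genes lower and 5.56% higher.

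Cxcl12, which stromal fibroblasts make and which binds Cxcr4 and the scavenging receptor Ackr3, was the least stable of the 4. It stood at 8.74, 9.96 and 9.38 in the current tumours and 9.47 and 8.49 in the passage 2 controls, against 9.97, 9.39 and 9.89 in the passage 1 RANK-Fc tumours and 10.44 and 9.57 in the passage 1 controls, with overlap. Prior tumours had 9.30, 8.33 and 9.20, and prior and current tumours 8.59, 8.76 and 8.79. The difference between passages was -0.69 ± 0.19 (SE; adjusted p = 0.0347, limma). Its second probe, designed on another transcript, gave -0.21 ± 0.22 and did not pass (adjusted p = 0.621, limma), and the call was lost with the mean of both probes (-0.45, adjusted p = 0.175, limma), with no dye term (adjusted p = 0.191) and with a term for array position (-0.71, adjusted p = 0.055). Ackr3 rose in the same comparison by 1.08 ± 0.21 (SE; adjusted p = 0.00547, limma). It stood at 9.11, 9.08 and 9.75 in the current tumours and 9.62 and 9.57 in the passage 2 controls, against 8.27, 8.60 and 8.11 in the passage 1 RANK-Fc tumours and 8.46 and 8.40 in the passage 1 controls.

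Fibroblast and adipocyte markers were lower on balance in passage 2, as Cxcl12 was. Of 11 fibroblast markers, 9 were lower and 2 higher in passage 2, with a median difference of -0.80, and none passed the threshold. Their mean ran from 10.20 to 12.67 in the 5 passage 2 tumours of this comparison and from 11.26 to 11.79 in the 5 of passage 1. Over 16 tumours Cxcl12 correlated with that mean at r = 0.578 (permutation p = 0.019, adjusted 0.019) and rho = 0.615 (permutation p = 0.013, adjusted 0.015), but at 0.285 within groups (exact permutation p = 0.53). Of 7 adipocyte markers 6 were lower, with a median of -0.85, and none passed. The part of these cells in the Cxcl12 result was not tested.

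Between the passages, the other chemokine genes except Ccl24 are given by receptor, and none of them passed the threshold. Both Cxcr3 ligands were higher in passage 2, Cxcl9 by 1.32 ± 0.73 and Cxcl10 by 0.93 ± 0.73 (SE; adjusted p = 0.278 and 0.451, limma). Of the 4 Ccr2 ligands, Ccl2 and Ccl7 were higher, by 1.00 ± 0.38 and 0.90 ± 0.37, and Ccl8 and Ccl12 lower. The inflammatory ligands Ccl3, Ccl4, Ccl5, Ccl6 and Ccl9 were all higher, by 0.04 to 0.42. The eosinophil-attracting Ccr3 ligand Ccl11 differed by -0.55, and Ccl17, a Ccr4 ligand, and Ccl19 differed by 0.09 and 0.06. The CXC ligands Cxcl13, Cxcl14 and Cxcl16 were all lower. Ccl1 and Xcl1 were higher, by 0.88 ± 0.31 and 0.98 ± 0.38 (adjusted p = 0.0833 and 0.118, limma). Ccl27a differed by -0.27 ± 0.10 (adjusted p = 0.124, limma), Ccl25 by 0.03, Ccl28 by -0.33 and Cxcl5 by -0.16. Of 13 T and NK markers 13 were higher in passage 2, with a median of 0.26, and none passed.

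The genes not given tumour by tumour are described by their ranges. Ccl8 ran from 10.93 to 13.43 with a median of 12.04, highest in passage 1 control tumour 1 and lowest in prior and current tumour 2. Xcl1 ran from 7.01 to 9.42 with a median of 8.03, and Ccl4 from 7.05 to 9.24 with a median of 7.41, both highest in current tumour 2 and lowest in prior and current tumour 2. Ccl6 ran from 9.52 to 11.43 and Ccl9 from 9.24 to 10.73, both highest in current tumour 3. The same tumours thus held the extremes of several myeloid and lymphoid ligands. Ccl11 ran from 6.81 to 8.67, Cxcl13 from 6.26 to 8.04, Ccl19 from 6.19 to 7.70, Cxcl5 from 6.17 to 7.61, Ccl3 from 6.65 to 7.94, Ccl17 from 6.98 to 8.23 and Ccl24 from 6.13 to 7.08.

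**Figure D4:**
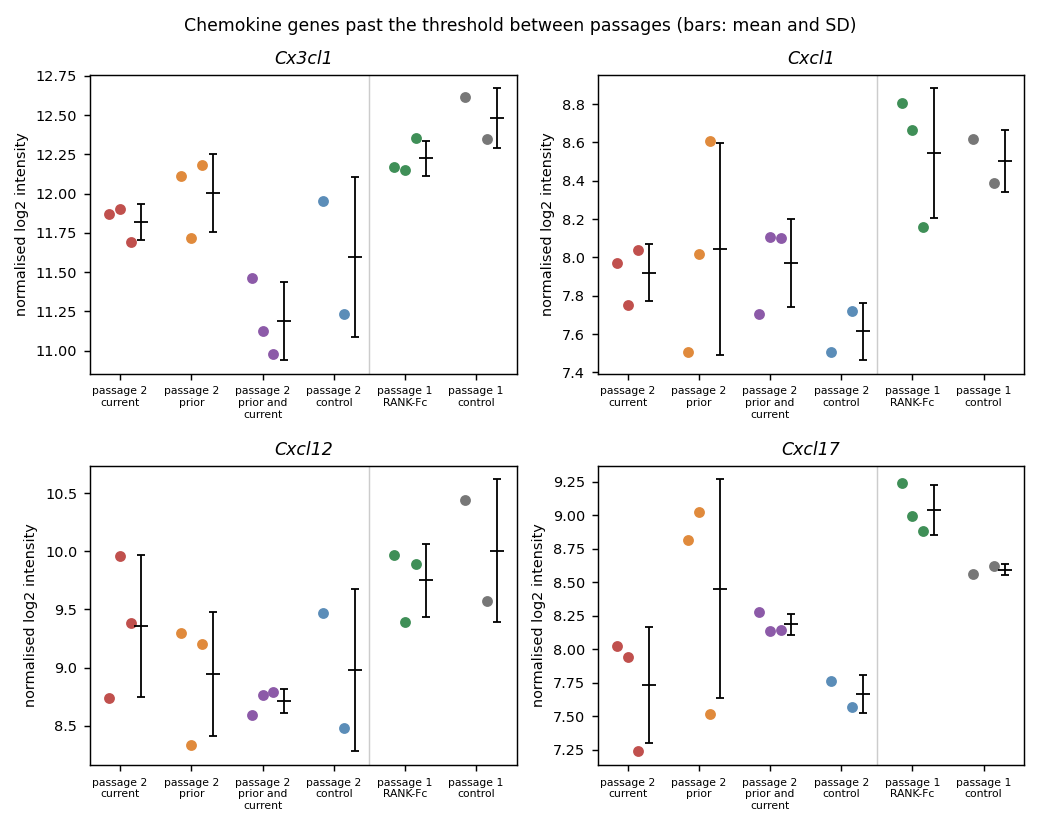
Normalised log2 intensity of the 4 chemokine genes past the threshold between the passages, 1 point per tumour by group, with the group mean and SD as bars and a grey line between passage 2 and passage 1. Current and passage 2 control points lie below all passage 1 points for Cx3cl1, Cxcl1 and Cxcl17 and overlap them for Cxcl12.

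The promoters of Cx3cl1, Cxcl1 and Cxcl12 are shown because their genes fell in passage 2, and that of Cxcl2 because its gene was above background in 1 of 16 tumours while Cxcl1, its neighbour in the same family, was in 16. They are the 250 bases before each start site on the plus strand, from RefSeq on build GRCm38.p6, at chr8:94771930-94772179, chr5:90890995-90891244, chr6:117168285-117168534 and chr5:90903649-90903898, in the order given, with the same motifs in capitals.
Cx3cl1: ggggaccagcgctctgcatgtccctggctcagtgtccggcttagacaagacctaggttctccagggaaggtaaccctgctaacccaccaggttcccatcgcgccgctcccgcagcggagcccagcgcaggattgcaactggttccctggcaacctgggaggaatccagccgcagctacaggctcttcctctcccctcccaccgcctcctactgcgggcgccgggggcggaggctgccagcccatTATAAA
Cxcl1: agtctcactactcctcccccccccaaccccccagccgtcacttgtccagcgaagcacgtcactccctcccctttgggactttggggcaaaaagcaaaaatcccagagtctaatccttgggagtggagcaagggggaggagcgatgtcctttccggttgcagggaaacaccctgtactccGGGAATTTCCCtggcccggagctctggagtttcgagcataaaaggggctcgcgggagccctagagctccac
Cxcl12: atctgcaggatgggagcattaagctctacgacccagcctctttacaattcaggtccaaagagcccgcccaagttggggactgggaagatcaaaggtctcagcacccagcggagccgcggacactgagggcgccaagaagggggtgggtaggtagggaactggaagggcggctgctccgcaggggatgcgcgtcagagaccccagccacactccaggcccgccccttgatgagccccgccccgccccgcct
Cxcl2: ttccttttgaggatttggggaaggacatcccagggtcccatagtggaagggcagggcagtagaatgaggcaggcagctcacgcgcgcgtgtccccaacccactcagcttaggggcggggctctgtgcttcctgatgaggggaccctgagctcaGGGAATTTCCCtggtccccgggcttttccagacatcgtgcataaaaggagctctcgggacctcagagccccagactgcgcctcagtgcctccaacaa
Cxcl1 and Cxcl2 both held the kappa B match GGGAATTTCC, read on the other strand as GGGAAATTCC from the overlapping letters. Cx3cl1 held TATAAA directly before its start, and the Cxcl12 window held none of the motifs. The same kappa B letters thus stood before a gene detected in every tumour and before one detected in 1.

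RANK-Fc moved no chemokine gene past the threshold in any comparison. Several of these comparisons share control tumours with each other and with the passage comparisons. Current RANK-Fc averaged over the 3 backgrounds gave 0 of 28, where 0 of 14131 genes (0%) passed. At an unadjusted p under 0.05 it gave 5 of 28 (17.9%), beside 6.82% of all genes, and the median difference was 0.07 for the 28 and 0.00 for all genes. In passage 1, RANK-Fc against control gave 0 of 28 by either measure, beside 0% of all genes called and 1.66% at an unadjusted p under 0.05. Current RANK-Fc against control in passage 2 gave 0 called, beside 0%, and 4 of 28 (14.3%) at an unadjusted p under 0.05, beside 4.05%. Here 24 of the 28 were higher with a median of 0.44, beside 0.02 for all genes, among them the 4 Ccr2 ligands, both Cxcr3 ligands, and Ccl3, Ccl4, Ccl5, Ccl6 and Ccl9. This median was 0.22 without current tumour 2, 0.23 without passage 2 control tumour 2 and 0.28 without current tumour 3. The passage 1 effect had 20 of 28 lower with a median of -0.15, which turned to 0.17 without passage 1 control tumour 1, and the test of the difference between the 2 effects gave 0 of 28 called and 0 of 28 at an unadjusted p under 0.05, beside 0% and 1.82% of all genes.

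Cxcl14, an epithelial chemokine, Ccl7 and Ccl12, the mouse relative of Ccl2, had the smallest p for current RANK-Fc in passage 2. Cxcl14 stood at 10.12, 10.53 and 11.16 in the current tumours, 9.89, 9.06 and 10.76 in the prior and 10.31, 10.15 and 10.42 in the prior and current, against 9.78 and 9.44 in the passage 2 controls, and in passage 1 at 10.99, 10.08 and 10.23 with RANK-Fc and 10.74 and 10.12 in controls. All 3 current tumours lay above both controls, by 0.97 ± 0.35 on average (SE; adjusted p = 0.999, limma), and by 0.63 without current tumour 3. Ccl7 stood at 8.75, 10.60 and 10.25 in the current tumours, 9.11, 8.20 and 8.39 in the prior and 8.71, 8.11 and 9.31 in the prior and current, against 9.13 and 8.34 in the passage 2 controls, and in passage 1 at 8.73, 8.09 and 8.16 with RANK-Fc and 9.002 and 7.90 in controls. Current tumours 2 and 3 were far above both controls and current tumour 1 between them, and the difference was 1.33 ± 0.49 (SE; adjusted p = 0.999, limma). Ccl12 stood at 8.82, 9.56 and 9.52 in the current tumours, 9.55, 8.77 and 8.81 in the prior and 8.86, 8.35 and 9.07 in the prior and current, against 9.11 and 7.91 in the passage 2 controls, and in passage 1 at 9.36, 8.63 and 9.13 with RANK-Fc and 9.88 and 8.66 in controls. The difference of 0.94 ± 0.37 (SE; adjusted p = 0.999, limma) rests on passage 2 control tumour 2, the lowest of the 16: without it the difference was 0.47.

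Macrophage and T and NK cell markers were uneven among the current tumours. The mean of 11 macrophage markers was 9.81, 10.85 and 10.92 in the current tumours and 10.44 and 10.07 in the passage 2 controls. For 13 T and NK markers it was 7.93, 9.32 and 8.39 in the current tumours and 8.82 and 8.23 in the controls. Current tumour 3 also had the highest fibroblast mean of the 16, 12.67. What part these tumours' cell content had in the differences was not tested.

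Cxcl16, a transmembrane ligand of Cxcr6, had the smallest p of the family for RANK-Fc in passage 1, with Ccl27a and Ccl28 next. Cxcl16 stood at 9.36, 9.12 and 9.42 in the passage 1 RANK-Fc tumours, against 10.04 and 9.41 in the passage 1 controls, a difference of -0.37 ± 0.25 (SE; adjusted p = 1, limma), and of -0.20 without passage 1 control tumour 1. In passage 2 it stood at 9.003, 10.05 and 9.72 in the current tumours, 9.75, 9.37 and 9.35 in the prior, 8.96, 8.92 and 9.31 in the prior and current, and 9.54 and 9.16 in the controls. The passage 1 groups overlapped, as did the current tumours and the passage 2 controls.

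Prior RANK-Fc left the family without a call as well. Prior against control in passage 2 gave 0 of 28 called, beside 1 of 14131 genes (0.00708%), and 2 of 28 (7.14%) at an unadjusted p under 0.05, beside 7.75%. Averaged over both passage 2 backgrounds it gave 0 of 28 called, beside 0.403%, and 8 of 28 (28.6%) at an unadjusted p under 0.05, beside 15.6%. In that average 21 of the 28 were lower after prior RANK-Fc, with a median of -0.31 beside 0.00 for all genes, -0.19 without prior and current tumour 2 and -0.47 without prior and current tumour 3. In the same average 11 of 11 macrophage markers were lower (median -0.58), 12 of 13 T and NK markers (-0.61) and 16 of 16 interferon response genes (-0.58), none past the threshold, and their part in the family's shift was not tested. Among the ligands, the 4 Ccr2 ligands and Ccl3, Ccl4, Ccl5, Ccl6 and Ccl9 were all lower. Values ran from -1.26 ± 0.69 for Cxcl9 to 0.73 ± 0.24 for Cxcl17 (SE; adjusted p = 0.402 and 0.176, limma). Without prior tumour 3, Cxcl17 passed the threshold in this average.

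Prior and current RANK-Fc together, against control, gave 0 of 28 called, beside 0.0708% of all genes, and 4 of 28 (14.3%) at an unadjusted p under 0.05, beside 9.12%. Current RANK-Fc after prior RANK-Fc gave 0 of 28 called, beside 0%, and 4 of 28 (14.3%) at an unadjusted p under 0.05, beside 10.1%. For the interaction of the prior with the current treatment the counts were 0 called, beside 0%, and 5 of 28 (17.9%), beside 6.89%. Cx3cl1 had the smallest p of the family in the last pair. Its prior and current tumours, given above, all lay below the prior tumours, by -0.80 ± 0.14 (SE; unadjusted p = 9.64e-05, adjusted p = 0.16, limma), and the interaction was -1.10 ± 0.21 (adjusted p = 0.483, limma). Neither value passed after adjustment over all genes.

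Ccl1, a Ccr8 ligand made by activated T cells, was among the 3 smallest p for both prior contrasts. It stood at 7.15, 9.30 and 7.45 in the current tumours, 7.67, 7.59 and 7.23 in the prior and 7.47, 6.82 and 7.37 in the prior and current, against 8.83 and 8.08 in the passage 2 controls. In passage 1 it stood at 7.36, 6.80 and 7.20 with RANK-Fc and 7.83 and 7.02 in controls. All 6 tumours with prior treatment lay below both passage 2 controls, by -0.94 ± 0.40 for prior alone and -1.10 ± 0.42 for prior and current (SE; adjusted p = 0.6 and 0.448, limma). With log ratios alone these were -0.58 and -0.30. A level below both passage 2 controls was not particular to prior treatment, since current tumours 1 and 3 and every passage 1 tumour had it too.

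Ccl28, Ccl25 and Ccl27a had the smallest p for current RANK-Fc averaged over its backgrounds. Ccl28 stood at 6.85, 7.51 and 7.03 in the current tumours, 6.27, 7.29 and 6.99 in the prior and 8.30, 7.08 and 9.30 in the prior and current, against 7.08 and 6.92 in the passage 2 controls. In passage 1 it stood at 7.24, 9.07 and 6.90 with RANK-Fc, against 6.89 and 6.93 in controls. It was high in 3 tumours, passage 1 RANK-Fc tumour 2 and prior and current tumours 1 and 3, all under RANK-Fc at collection, and the other 6 such tumours lay between 6.85 and 7.51, near the untreated ones. The averaged difference was 0.86 ± 0.33 (SE; adjusted p = 0.688, limma), and current after prior RANK-Fc gave 1.57 ± 0.52 (adjusted p = 0.318, limma), where 2 of 3 prior tumours were above background.

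Ccl25, a ligand of Ccr9 known from thymus and small intestine, stood at 8.67, 8.995 and 8.88 in the current tumours, 8.80, 9.23 and 8.87 in the prior and 9.26, 9.24 and 9.71 in the prior and current, against 8.80 and 8.68 in the passage 2 controls. In passage 1 it stood at 8.84, 8.67 and 8.76 with RANK-Fc, against 8.68 and 8.67 in controls. The 3 prior and current tumours were the highest of the 16, with prior tumour 2 directly below, and exceeded the passage 2 controls by 0.73 ± 0.16 (SE; adjusted p = 0.157, limma). A second Ccl25 probe, above background in 7 tumours, gave -0.17 ± 0.15 for the same contrast, so the probes disagree, and their mean gave 0.28. Ccl27a, a Ccr10 ligand of epithelium, stood at 9.61, 9.58 and 9.38 in the current tumours, 9.78, 9.70 and 10.20 in the prior and 9.67, 9.82 and 9.65 in the prior and current, against 9.72 and 9.76 in the passage 2 controls. In passage 1 it stood at 9.78, 9.69 and 9.95 with RANK-Fc, against 10.14 and 9.89 in controls. Its averaged difference was -0.20 ± 0.08 (SE; adjusted p = 0.696, limma), and its other 2 probes gave -0.22 each.

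**Figure D5:**
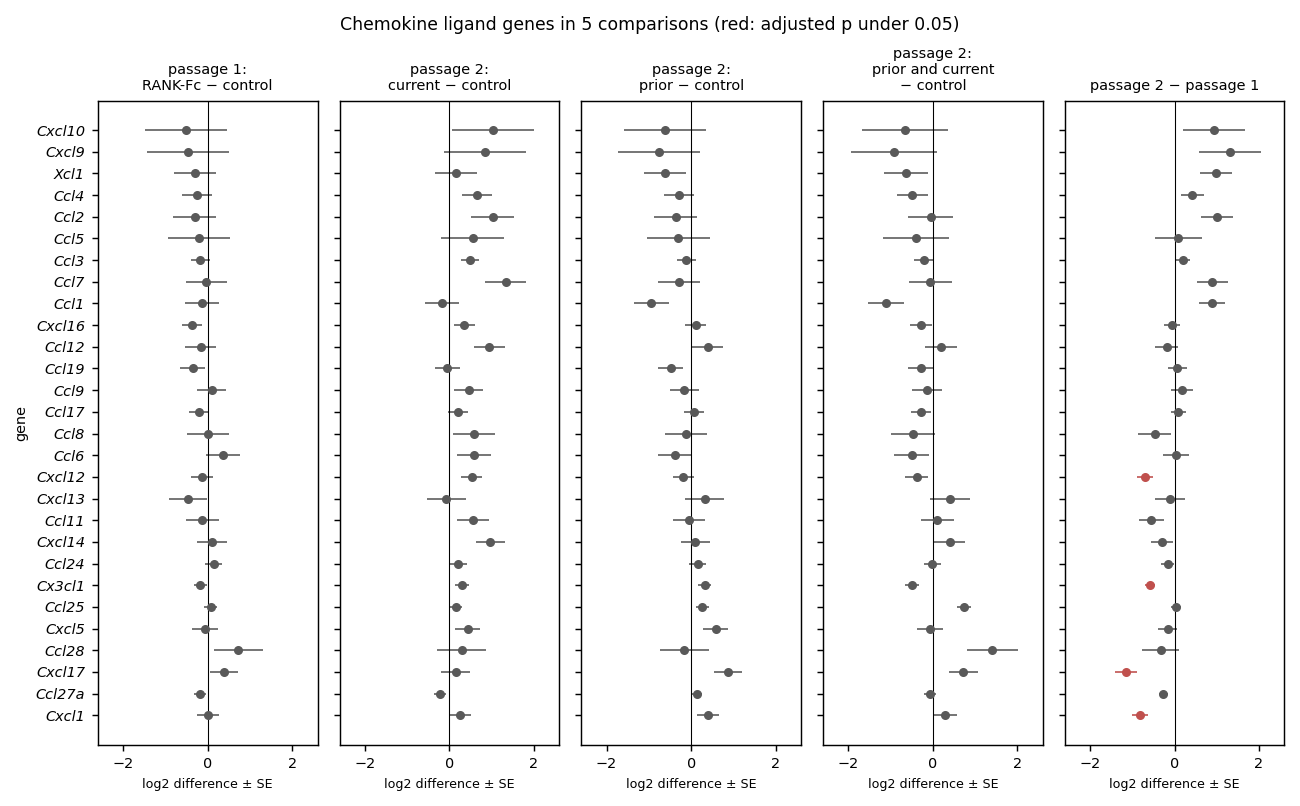
Log2 difference with its SE for the 28 chemokine genes in 4 RANK-Fc comparisons and between the passages, the gene order being that of the heat map and red marking an adjusted p under 0.05. Red points appear in the last panel alone, at Cxcl12, Cx3cl1, Cxcl17 and Cxcl1; Ccl24 was not well above background in passage 2 controls.

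Receptors and pathway genes fixed as lists were read beside the ligands. Of 18 chemokine receptors named, 9 were tested, among them Cxcr3, Cxcr4, Ccr2 and Cx3cr1, and none passed in any of the 11 comparisons. Of 5 atypical receptors, 4 were tested, and Ackr3 between the passages was the only call. In the averaged passage comparison 3 of 15 NF-kappa B subunits and targets passed, beside 12.1% of all genes called in either direction. Tnfaip3, a feedback inhibitor, rose by 0.61 ± 0.17, while the subunit Nfkb1 fell by 0.35 ± 0.10 and Ptgs2 by 0.51 ± 0.14 (SE; adjusted p = 0.0385, 0.0366 and 0.0332, limma). None of the 16 interferon response genes tested passed in any comparison. With current RANK-Fc in passage 2 all 16 were higher, with a median of 1.16, and in passage 1 all 16 were lower, with a median of -0.29. The mean of the 16 was 10.24, 11.93 and 11.14 in the current tumours and 11.24 and 9.61 in the passage 2 controls. In passage 1 it was 10.47, 9.89 and 10.51 with RANK-Fc and 11.57 and 9.88 in the controls. The groups overlapped in each passage. Tnfrsf11a, the gene of RANK itself, rose between the passages by 0.79 ± 0.15 (SE; adjusted p = 0.00457, limma).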

How the data were processed

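RNA of 16 tumours was hybridised to 8 two-colour Agilent arrays after low-input labelling, 1 tumour in each channel, each with its own code and counted as 1 replicate. No label says that the codes are separate animals, so p-values measure the spread between these samples, which may be technical. The deposited files hold median spot and background intensity and processed intensity per channel, a log10 ratio of red over green, and quality marks of the kind named other here, which per the file headers came from Agilent Feature Extraction 10.7.3.1. A series-wide table of 8 value columns was not used, because their names match no sample's labels.

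From the deposited intensity values, background was corrected with normexp (offset 50), followed by loess within arrays and Aquantile between arrays, and log2 intensity was taken from there. Control spots and outlier spots, 464 to 624 per array, were left out, and 28 values of the gene table were missing, none of a chemokine. A probe was kept when well above background in all tumours of at least 1 group, and the brightest kept probe stood for a gene. Of 55681 probes, 28026 had a gene name. limma 3.58.1 in R 4.3.3 fitted a mean per group (6) plus dye, taking the array as a block (intraspot correlation 0.23, corrected by simulation for the bias of the estimate of 0.415). This is the separate-channel model planned, fitted by a function that takes missing values. Adjusted p-values are Benjamini-Hochberg over 14131 genes, with a threshold of 0.05. Correlations used 100000 permutations, or all 5184 within groups. The fit was tested on simulated data. Promoter windows came from RefSeq, GRCm38.p6.

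Every chemokine could be named. Values per tumour are given for genes past the threshold, the 3 smallest p in each of 5 RANK-Fc comparisons and the averaged passage comparison, and the 5 highest SDs. Members, lists and rules were chosen with earlier results of these data known. Alternatives covered background, normalisation, filter, probe choice, dye, correlation, log ratios, variance and each tumour left out. All 8 arrays lie on 1 slide with 1 scan time, and precision is limited by the number of arrays.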

Additional observations from a re-analysis of the deposited data

How the results depend on the processing

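The 4 chemokine calls between the passages became 0 with log ratios alone and ranged from 1 to 7 with 1 tumour left out. In the controls alone the 1 call became 0 under median centring, with no dye term and with log ratios alone, and ranged from 0 to 3 with 1 tumour left out, with 3 without prior tumour 3 and 2 without prior and current tumour 3. The averaged effect of prior RANK-Fc in passage 2 gave 0 calls, and 0 to 1 with 1 tumour left out (Cxcl17, without prior tumour 3). The other RANK-Fc counts were 0 under every setting run. No direction of a gene past the threshold reversed. Cxcl12 lost its call with processed signals (adjusted p = 0.0586, limma) and in 6 of the 16 fits with 1 tumour left out. A term for the 2 columns of array positions, chosen after seeing the data, kept Cx3cl1, Cxcl1 and Cxcl17. The causes of these changes were not tested. Slide and scan time as a block were not run, since there is 1 of each. No paired analysis was possible because replicate numbers were given in accession order and the labels tie no tumours to each other. Signals near background limit Ccl24, Cxcl5, Ccl19, Cxcl13 and Ccl28.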
